A study of Arabidopsis thaliana with 4 samples.

Results

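In the deposited expression table of Arabidopsis thaliana seedlings, 43 of 31346 genes carry the words ubiquitin carboxyl-terminal hydrolase in their annotation. They were chosen by that text alone, and the text falls into 3 classes. Of the 43 genes, 13 are called ubiquitin carboxyl-terminal hydrolase-related protein, 18 are called family protein, and 12 have another wording, such as a plain enzyme name, Peptidase C12 or a "-like" protein. No expression value enters the choice of a gene, but the set was taken up after results of the same comparison between genotypes were known. The changes between genotypes below are therefore a description of these genes, with p-values from the fit over all genes, and their number is not independent evidence of anything about the set.

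The tested seedlings were of line #5, which constitutively overexpresses CLPD in the wild-type background (ClpD-OE), and the others were wild type (WT). All were whole seedlings, 6 d old, with 2 poly(A) RNA-seq libraries per genotype. The series' design text gives accumulation of the ClpD precursor protein as its reason for using this line, and no protein was measured in the data used here. Both ClpD-OE libraries carry the same line number, so any trait of line #5 other than overexpression would enter the comparison too, and the promoter of the transgene is not named in the labels. CLPD is a nuclear gene for an ATPase of the chloroplast Clp protease system. The labels do not say whether the libraries of a genotype came from separate cultures, so the p-values below speak of the variation among these 4 samples, and part of it may be technical.

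Ubiquitin carboxyl-terminal hydrolases are proteases that cut behind the last residue of ubiquitin, the small protein that marks other proteins for destruction by the 26S proteasome. They free ubiquitin for another round of use, and they trim or remove ubiquitin chains. The large plant family of ubiquitin-specific proteases (UBP) and the small family of ubiquitin C-terminal hydrolases (UCH, peptidase family C12) do this work, beside OTU and JAMM type deubiquitinases. WTF1, a gene of the family-protein class, is known for something else. It encodes a protein with a plant organelle RNA recognition domain that binds group II introns of chloroplast transcripts and is needed for their splicing, and WTF9 and RPD1 encode related proteins that act on mitochondrial introns.

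Total counts were 23294451 and 22764333 in the ClpD-OE libraries and 20800842 and 21896988 in the WT libraries, and 18940 genes passed the filter on low counts. The overexpressed gene itself, AT5G51070, listed in the table as ERD1, had 41739 and 46316 counts in ClpD-OE against 2849 and 3037 in WT, an 11.9-fold difference (edgeR adjusted p = 0.00283), in which transgene and resident copy cannot be told apart. Of the 3 shoot markers, RBCS1A, CAB1 and LHCB2.1, all were called lower in ClpD-OE, and their summed level was 35400 and 35300 normalized CPM (counts scaled to library size) in ClpD-OE against 52600 and 51200 CPM in WT. The 3 root markers, PYK10, CASP1 and TIP2;3, summed to 1260 and 1290 CPM in ClpD-OE and to 1220 and 1340 CPM in WT, nearly all of it from PYK10. CASP1 had 26 and 48 counts in ClpD-OE against 11 and 15 in WT, which do not overlap, a log2 fold change of 1.17 (adjusted p = 0.165). None of the 3 was called, and TIP2;3, with 1 to 9 counts per library, was too low to test. In bulk seedlings, fewer cells of a type and less RNA per cell cannot be told apart. Whether the lower shoot marker level or the value of CASP1 has a part in the values below was not tested.

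The 43 genes were first compared with each other at the level of protein, because the 3 annotation classes do not mark 3 kinds of protein. Protein sequences translated from the RefSeq annotation of assembly TAIR10.1 were joined into groups wherever blastp found a match with an expected value under 1e-05. Most of the genes fell into a pair of groups. The first held 21 genes, namely all 13 related proteins, 3 family proteins (AT1G65140, AT1G65160 and AT1G65170) and 5 of other wording. Several of its annotations name the domains of unknown function DUF627 and DUF629, and it is called the DUF627/DUF629 group here. The second group held the other 15 family proteins. Each of these matched all of the other 14, WTF1, WTF9 and RPD1 among them, and none matched any UBP or UCH gene. It is called the organelle RNA recognition group, although the table gives most of its genes no name and no such role. The last 7 genes, all of other wording, are UCH1, UCH2, UBP7 and 4 genes known by locus. Of those known by locus, AT1G65295, AT5G22040 and AT5G26720 matched no UBP or UCH gene either.

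These groups also differ in build and position, which the annotation rule did not use. Coding lengths in the organelle RNA recognition group were 1164 to 1587 bases with a median of 1248, and no gene of it lay within 2 genes of another member. In the DUF627/DUF629 group the coding lengths ran from 408 to 4824 bases with a median of 3306, and 18 of the 21 genes had another group member within 2 genes on the chromosome. Of those 21 genes, 15 shared stretches of 50 bases with another gene of the genome's coding sequences, and none of the 15 organelle RNA recognition genes did. Reads from shared stretches may have been split between copies in the authors' counting, so the values of those 15 genes are uncertain in that respect.

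Of the 43 genes, 33 were tested, 9 were called higher in ClpD-OE at an adjusted p under 0.05 and 0 were called lower. Across all 18940 tested genes, 4.29% were called higher and 3.91% lower. Among the 33 tested genes, 20 had an unadjusted p under 0.05 in edgeR, as did 5348 of the 18940. DESeq2 called 10 of the 33 higher and 0 lower, beside 1021 higher and 1217 lower among all tested genes. With either ClpD-OE library left out, edgeR called 0 genes of the whole table, these 9 included, and without WT replicate 1 it called 1 of the 9. The median log2 fold change of ClpD-OE over WT was 1.07 over these 33 genes, with a range of -0.21 to 2.85, beside 0.0011 over all tested genes. Both ClpD-OE libraries lay above both WT libraries for 27 of the 33 tested genes, and for 30.5% of all tested genes. The reverse order, with both WT libraries above, was seen for 0 of the 43, and for 5577 of the 18940 tested genes. Of the 43, 4 had no count in any library and could show neither order. Some of the 33 tested genes, such as AT2G34240 with 1 and 4 WT counts, could pass the filter on low counts through the ClpD-OE libraries alone. Such genes could hardly come out lower, so the counts and the median over the 33 are partly set by the filter. Summed over all 43 genes, which no filter touches, the level was 361 and 357 CPM in ClpD-OE and 248 and 254 CPM in WT, a ratio of 1.43.

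**Figure D1:**
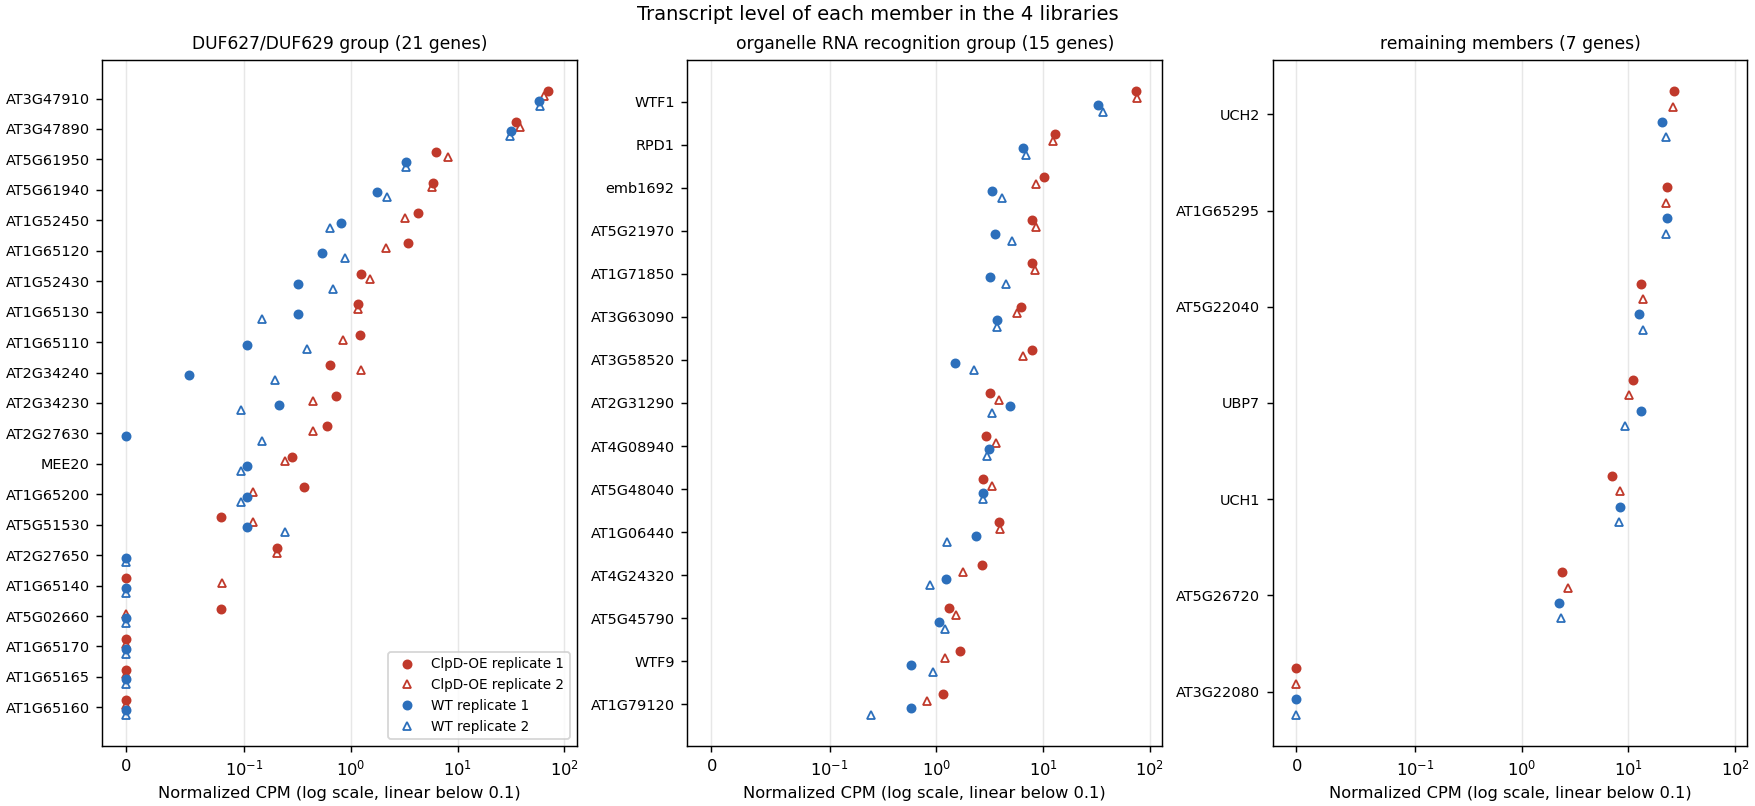
Normalized CPM of each of the 43 genes in the 4 libraries, on a log axis that is linear below 0.1, in 3 panels by protein similarity. Red symbols are ClpD-OE and blue symbols WT, with a circle for replicate 1 and a triangle for replicate 2. The red symbols of WTF1 sit at 73.7 and 75.6 CPM, to the right of the blue ones at 32.7 and 36.6 CPM, while in the right panel red and blue overlap for AT1G65295, AT5G22040, UBP7 and UCH1.

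By annotation class, 4 of 10 tested related proteins were called higher, 5 of 15 tested family proteins were, and 0 of 8 tested genes of other wording were. The same genes split by protein similarity gave 4 of 12 in the DUF627/DUF629 group, 5 of 15 in the organelle RNA recognition group and 0 of 6 among the remaining genes. The share called higher among all tested genes was 4.29%. Some of the 12 could pass the filter on low counts through the ClpD-OE libraries alone. In the 0 of 6, 1 gene had an unadjusted p under 0.05 and DESeq2 called 0. The genes of other wording that had log2 fold changes of 1.90 and 2.85, AT2G34230 and AT2G34240, belong to the DUF627/DUF629 group by sequence. Without a test of the difference between groups, these counts stand side by side only.

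The organelle RNA recognition group holds the gene of the highest level per length among the 43, WTF1, at a mean of 28.4 FPKM over the 4 libraries (FPKM is the authors' level scaled to transcript length and library size). UCH2 followed at 17.9, AT1G65295 at 16.9, AT3G47910 at 11.4 and AT5G22040 at 10.1 FPKM, and the median of the 15 genes of the WTF1 group was 2.27 FPKM. WTF1 (AT4G01037, chromosome 4), the chloroplast intron splicing factor, had 1844 and 1873 counts in ClpD-OE against 616 and 756 in WT. That is 74.7 ± 1.36 CPM in ClpD-OE and 34.6 ± 2.80 CPM in WT (SD, n = 2 each), a 2.15-fold difference (log2 fold change 1.11, SE 0.0942, edgeR adjusted p = 0.0188). Both ClpD-OE libraries lay above both WT libraries, by more than the spread within either genotype. WTF1 made up 50.4% and 51.9% of the CPM of its group in ClpD-OE and 46.1% and 47.8% in WT. With WTF1 set aside, the other 14 genes still summed to 72.4 and 70.1 CPM in ClpD-OE against 38.2 and 40.1 CPM in WT, a ratio of 1.82.

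Of the other named genes in this group, RPD1 (AT4G33495), whose product is needed for the splicing of mitochondrial introns, had 326 and 305 counts in ClpD-OE against 121 and 143 in WT, or 12.7 ± 0.506 CPM and 6.67 ± 0.361 CPM. It was 1.90-fold higher (log2 fold change 0.92, adjusted p = 0.0271). Emb1692 (AT5G62990), named for an embryo-defective mutant and spelled emb1692 in the table, had 252 and 212 counts in ClpD-OE and 63 and 85 in WT, or 9.32 ± 1.07 CPM and 3.73 ± 0.549 CPM. It was 2.49-fold higher (log2 fold change 1.32, adjusted p = 0.0271). In both genes the WT libraries lay below the ClpD-OE libraries by more than the spread within either genotype. WTF9 (AT2G39120), a factor of mitochondrial intron splicing, was much scarcer. It had 42 and 30 counts in ClpD-OE and 11 and 19 in WT, a log2 fold change of 0.93 (SE 0.389) that was not called (adjusted p = 0.195).

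The largest change in the group was in AT3G58520, on chromosome 3, which has no name in the table. It had 195 and 162 counts in ClpD-OE against 28 and 46 in WT, or 7.17 ± 0.886 CPM and 1.86 ± 0.526 CPM, a 3.84-fold difference (log2 fold change 1.94, SE 0.251, adjusted p = 0.0242). The annotation has it overlap both of its neighbours, and no source used here tells whether strand entered the counting. Those neighbours, AT3G58510 and AT3G58530, had log2 fold changes of 0.28 and 0.14 and were not called. AT3G58510 is far more abundant, with 1393 and 1496 counts in ClpD-OE against 883 and 1013 in WT. RPD1 likewise overlaps AT4G33490, whose log2 fold change was 0.31 (adjusted p = 0.287). In AT3G58510, AT3G58530 and AT4G33490 both ClpD-OE libraries lay above both WT libraries, as in 30.5% of all tested genes. AT1G71850 was the fifth gene called, with 195 and 206 counts in ClpD-OE and 60 and 92 in WT, or 8.06 ± 0.37 CPM and 3.82 ± 0.902 CPM (log2 fold change 1.07, adjusted p = 0.0446).

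A further 10 genes of the group did not pass, and they were of 2 sorts. AT5G21970, AT3G63090, AT1G06440, AT4G24320 and AT1G79120 had log2 fold changes of 0.69 to 1.26 with no overlap between the genotypes, as did WTF9, at adjusted p-values of 0.0616 to 0.197. AT5G21970, for example, had 198 and 213 counts in ClpD-OE against 67 and 105 in WT, and DESeq2 called it. The remaining 4, AT5G45790, AT5G48040, AT4G08940 and AT2G31290, had log2 fold changes between -0.21 and 0.33 at adjusted p-values of 0.528 or more. In AT5G45790 and AT5G48040 the genotypes did not overlap either, with ClpD-OE above. That order was seen in 30.5% of all tested genes. AT2G31290 was the 1 gene of the 15 with a value below 0, at 80 and 96 counts in ClpD-OE and 92 and 69 in WT, which overlap. Its sign and that of AT4G08940 turn in alternative fits. So the family members did not all differ to the same extent, from 3.84-fold in AT3G58520 to a ratio of 0.863 in AT2G31290. All 15 passed the filter on low counts, and 14 of them had at least 10 counts in both WT libraries.

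**Figure D2:**
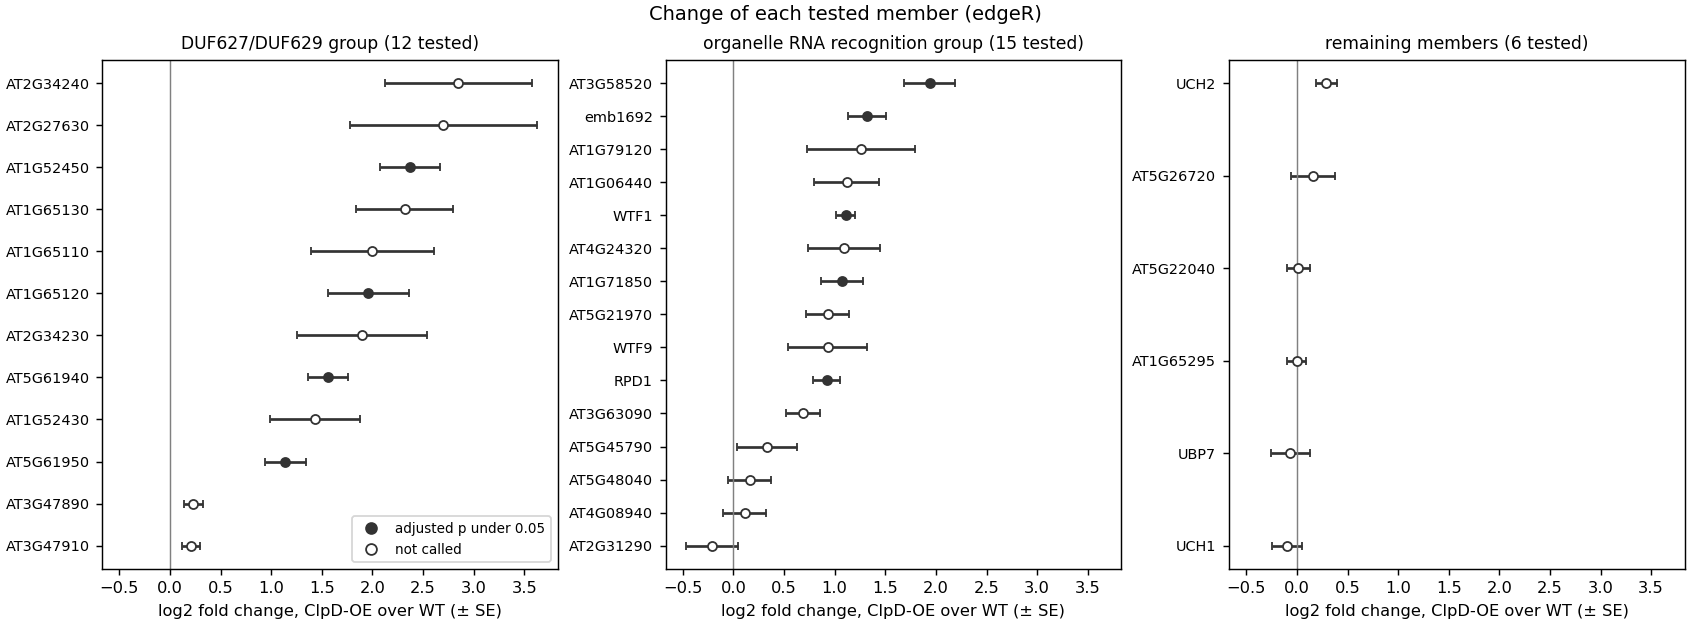
Log2 fold change of ClpD-OE over WT for the 33 tested genes, with the standard error from edgeR, in 3 panels by protein similarity. Filled points have an adjusted p under 0.05 and open points do not. All 12 points of the left panel lie above 0, at 0.21 to 2.85, 14 of the 15 in the middle panel do, and the 6 on the right lie between -0.098 and 0.29. Some of the 12 could pass the filter on low counts through the ClpD-OE libraries alone.

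The DUF627/DUF629 group was mostly of very low abundance, with a median of 0.158 FPKM over the 4 libraries. The exceptions were AT3G47890 and AT3G47910, near neighbours on chromosome 3 whose coding sequences are 90.2% identical. AT3G47910 had 1764 and 1594 counts in ClpD-OE and 1088 and 1217 in WT, or 67.4 ± 4.35 CPM and 58.3 ± 0.889 CPM. AT3G47890 had 887 and 945 counts in ClpD-OE and 595 and 642 in WT, or 36.8 ± 1.91 CPM and 31.3 ± 0.321 CPM. Their log2 fold changes were 0.21 (SE 0.0867) and 0.23 (SE 0.0925), and neither was called (adjusted p = 0.192 and 0.179). These genes were also the ones of the group with a match to proteins of the UBP list, AT3G47890 to 2 and AT3G47910 to 1.

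The 4 genes of the group that were called are scarce and lie in tandem pairs or blocks. On chromosome 5, AT5G61940 had 147 and 143 counts in ClpD-OE against 33 and 45 in WT, or 5.83 ± 0.0721 CPM and 1.97 ± 0.304 CPM, a 2.95-fold difference (log2 fold change 1.56, SE 0.200, adjusted p = 0.0241). Next to it, AT5G61950 had 157 and 201 counts in ClpD-OE and 62 and 67 in WT, or 7.2 ± 1.3 CPM and 3.27 ± 0.0299 CPM, a 2.2-fold difference (log2 fold change 1.14, adjusted p = 0.0373). Their coding sequences are 86.3% identical over the aligned part, and 9.61% and 10.5% of their 50-base windows occur in another gene. The genes on either side of this pair, APO3 and ML1, had log2 fold changes of 0.30 and -0.073 and were not called. APO3 overlaps AT5G61940, and both of its ClpD-OE libraries lay above both WT libraries. Whether strand entered the counting is not known.

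On chromosome 1, AT1G52450 had 105 and 79 counts in ClpD-OE against 15 and 13 in WT, or 3.69 ± 0.712 CPM and 0.713 ± 0.117 CPM. This 5.17-fold difference (log2 fold change 2.37, SE 0.299, adjusted p = 0.0239) was the largest of the called genes. Its near copy AT1G52430 is 96.9% identical over 3411 bases, and 32.4% of the windows of either occur in another gene, so reads may be misassigned between them. AT1G52430 had 31 and 37 counts in ClpD-OE and 6 and 14 in WT, a log2 fold change of 1.43 that was not called (adjusted p = 0.114). The gene between them, AT1G52440, had no count in any library, and AT1G52420, which flanks and overlaps AT1G52430, had a log2 fold change of 0.016.

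Further along chromosome 1 lies a block of 8 of the genes between AT1G65110 and AT1G65200. AT1G65120 was called, with 85 and 53 counts in ClpD-OE against 10 and 18 in WT (log2 fold change 1.96, SE 0.402, adjusted p = 0.0491). It overlaps another gene, AT1G08737, so the same uncertainty about strand applies to it. AT1G65130, with 29 counts in each ClpD-OE library against 6 and 3 in WT, had a larger log2 fold change, 2.32, and fell just outside the threshold (adjusted p = 0.0502). AT1G65110, with 30 and 21 counts against 2 and 8 in WT, was not called either (adjusted p = 0.109). AT1G65200 had 9 and 3 counts in ClpD-OE and 2 in each WT library and was not tested, AT1G65140 had 2 counts in 1 ClpD-OE library, and the short genes AT1G65160, AT1G65165 and AT1G65170 had none. Among the genes inside the block that are not members, AT1G65150, AT1G65180 and AT1G65190 had log2 fold changes of 0.29, 0.44 and -0.13. None of these was called.

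**Figure D3:**
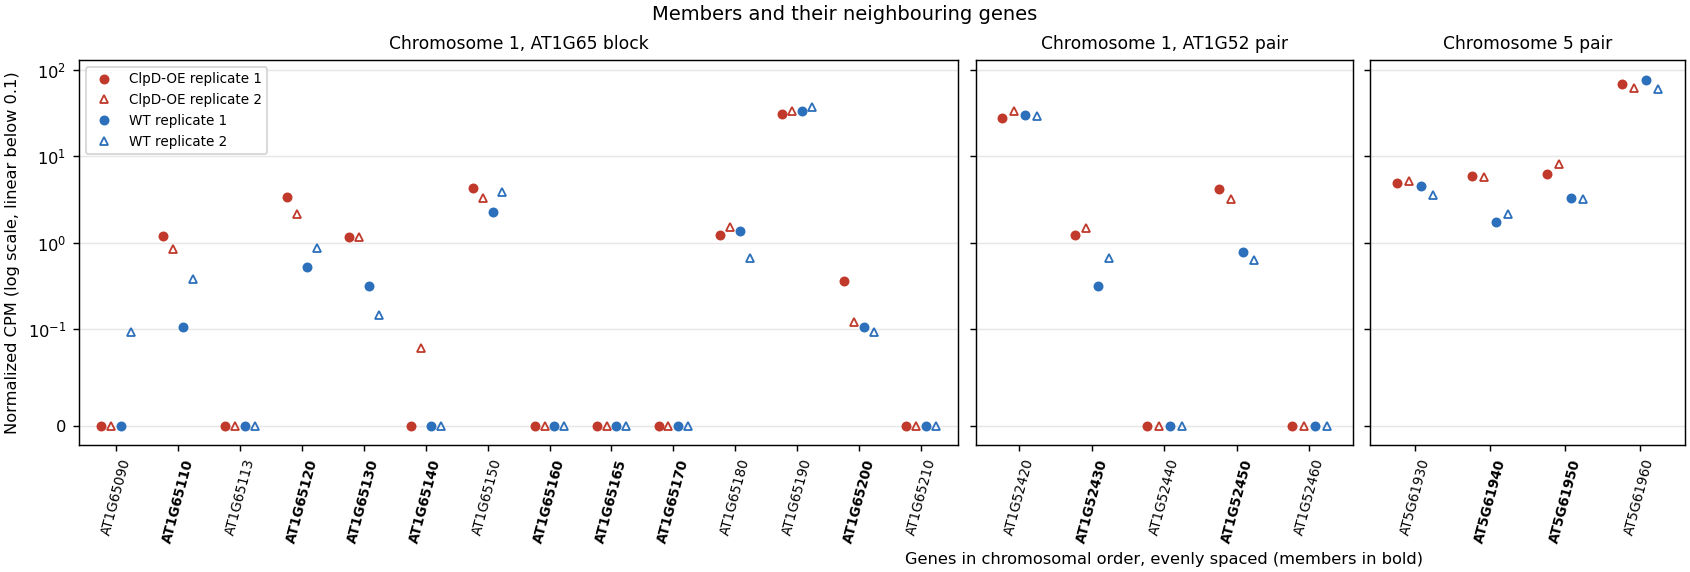
Normalized CPM in the 4 libraries for the genes of 3 chromosomal stretches, evenly spaced in chromosomal order, with genes of the DUF627/DUF629 group in bold. Red symbols are ClpD-OE and blue symbols WT. In bold genes with counts in all libraries, such as AT1G65120, AT1G52450 and AT5G61940, red lies above blue, while in AT1G65190 and AT1G52420 the colours intermingle.

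On chromosome 2, AT2G34240 had 16 and 31 counts in ClpD-OE against 1 and 4 in WT, and AT2G27630 had 15 and 11 counts in ClpD-OE against 0 and 3 in WT. Their log2 fold changes of 2.85 and 2.70 are the highest of the 33 tested genes and rest on few WT counts, with SE of 0.726 and 0.925, and neither was called. AT2G34230 had 18 and 11 counts in ClpD-OE and 4 and 2 in WT (adjusted p = 0.135). MEE20 had 7 and 6 counts in ClpD-OE and 2 in each WT library, and AT2G27650 had 5 in each ClpD-OE library and none in WT, and both were too low to test. AT5G51530 was the exception to the general order, at 2 and 3 counts in ClpD-OE and 2 and 5 in WT.

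Genes this scarce could pass the filter on low counts through the ClpD-OE libraries alone. Of the 21 genes, 6 had at least 10 counts in both WT libraries, and the 12 that were tested are not the whole group. The sums over every gene need no filter. Leaving out AT3G47890 and AT3G47910, a split made after their values were seen, the other 19 genes together had 658 and 635 counts in ClpD-OE against 145 and 186 in WT, or 26.3 and 25.6 CPM against 7.69 and 9.01 CPM in WT, a ratio of 3.11. With AT3G47890 and AT3G47910 the whole group summed to 132 and 128 CPM in ClpD-OE and 96.9 and 99.1 CPM in WT, a ratio of 1.33. The 23 nearest neighbours of the group that are not members were also set beside it. Of these, 13 were tested, 0 were called by edgeR, 2 had an unadjusted p under 0.05, and DESeq2 called 1 higher. Their summed CPM ratio was 1.04, in which AT2G34250 alone held 204 CPM in ClpD-OE and 198 CPM in WT. The median log2 fold change of the 13 was 0.29, with 10 above 0 and 3 below. The highest was 1.55 in AT2G27610 (edgeR adjusted p = 0.0622). The 30 nearest neighbours of the organelle RNA recognition genes had a summed ratio of 0.991, with GFA2 called higher and FTSH8 called lower among the 24 tested. Of those 24, 9 had an unadjusted p under 0.05, and DESeq2 called 2 higher and 1 lower. Their median log2 fold change was 0.16, with 15 above 0 and 9 below.

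The remaining genes, known hydrolases or named so by annotation, differed little. For AT1G65295, AT5G22040 and AT5G26720 the name rests on the annotation, since their proteins matched no UBP or UCH protein. UCH2 (AT1G65650), an enzyme of the C12 peptidases, had 663 and 648 counts in ClpD-OE against 389 and 465 in WT, or 26.3 ± 0.238 CPM and 21.6 ± 1.34 CPM. Its log2 fold change was 0.29 (SE 0.102) and it was not called (adjusted p = 0.147), although the genotypes did not overlap. Its relative UCH1 (AT5G16310) had 177 and 207 counts in ClpD-OE and 159 and 167 in WT, or 7.72 ± 0.907 CPM and 8.26 ± 0.242 CPM, which overlap. UCH3, the third gene of that small family, is annotated in other words and is no member, and it had a log2 fold change of 0.013.

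UBP7 (AT3G21280) is the 1 ubiquitin-specific protease among the 43, and its protein matched 20 of the UBP list, with UBP6, a partner of the proteasome, the closest at 84.8% identity of the coding sequence. It had 275 and 253 counts in ClpD-OE against 245 and 190 in WT, or 10.6 ± 0.549 CPM and 11.1 ± 2.68 CPM. The WT libraries lay on both sides of the ClpD-OE libraries. AT1G65295 averaged 22.7 ± 0.406 CPM in ClpD-OE and 22.7 ± 0.381 CPM in WT, and AT5G22040 averaged 13.3 ± 0.407 CPM in ClpD-OE and 13.1 ± 0.591 CPM in WT. For these 2 genes the log2 fold changes were -0.0029 (SE 0.0968) and 0.014 (SE 0.116). AT5G26720, with 60 and 67 counts in ClpD-OE and 42 and 48 in WT, was not called, and AT3G22080 had no count. All 7 together had 2075 and 2066 counts in ClpD-OE and 1509 and 1614 in WT, a ratio of 1.05 once scaled to CPM.

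Most ubiquitin-specific proteases carry other annotation words, so the family was also read from a list of 27 UBP genes. Of these, 25 were tested and 0 were called by edgeR or by DESeq2, while 3, UBP2, UBP17 and UBP22, had an unadjusted p under 0.05. The 0 depends on the scaling, since edgeR called 5 of them higher with library totals in place of TMM factors. Their log2 fold changes ran from -0.28 to 0.49 with a median of 0.049, and the summed level was 797 and 790 CPM in ClpD-OE and 746 and 749 CPM in WT. UBP2 had the smallest p, at 32.7 ± 1.58 CPM in ClpD-OE and 25.2 ± 1.40 CPM in WT (log2 fold change 0.38, adjusted p = 0.0854). UBP12, the most abundant of the family per length, had 117 ± 3.60 CPM in ClpD-OE and 122 ± 0.0458 CPM in WT. AT5G58575 and AT3G27100, listed as partners of a histone deubiquitination module, were tested and not called.

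Among 19 tested deubiquitinases of the OTU and JAMM types, 1 was called higher and 0 lower, with a median log2 fold change of 0.12. The called gene was AT5G23540, entered in the list as RPN11. It stood at 2241 and 2067 counts in ClpD-OE against 1181 and 1247 in WT, or 86.5 ± 4.33 CPM and 61.5 ± 1.57 CPM, a 1.41-fold difference (adjusted p = 0.0352). With any 1 of the 4 libraries left out, 0 of these genes were called. Of 11 tested ubiquitin genes and E1 enzymes, which supply and activate ubiquitin, edgeR called 0, DESeq2 called 1 lower, and 5 had an unadjusted p under 0.05. With library totals edgeR called 5 of them higher, and without WT replicate 2 it called 2 lower. The polyubiquitin gene UBQ11 was the one with the smallest p, at 391 ± 40.5 CPM in ClpD-OE and 621 ± 132 CPM in WT (log2 fold change -0.67, adjusted p = 0.0731).

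Because WTF1, WTF9 and RPD1 act on organelle introns, lists of other intron splicing factors were set beside them. Of 15 plastid factors, all tested, 4 were called higher and 0 lower, with a median log2 fold change of 0.26. Across all tested genes, 4.29% were called higher and 3.91% lower. The number of plastid factors called higher was 7 with library totals in edgeR and 5 with DESeq2. CAF1, which acts with CRS2 in chloroplast splicing, averaged 56.1 ± 1.48 CPM in ClpD-OE and 31.7 ± 3.27 CPM in WT, a 1.77-fold difference (adjusted p = 0.0239). BSM, a plastid mTERF protein, was 1.76-fold higher (adjusted p = 0.0239), and the RNA helicase gene emb1138 was 1.37-fold higher (adjusted p = 0.0397). APO1 was at -0.40 on the log2 scale and was not called. Of 13 mitochondrial factors, all tested, 5 were called higher and 0 lower, with a median of 0.74. Library totals gave 8 of them called higher in edgeR, and DESeq2 called 6. PMH1, a mitochondrial DEAD-box RNA helicase, averaged 39.1 ± 2.15 CPM in ClpD-OE and 17.4 ± 1.04 CPM in WT, a 2.25-fold difference (adjusted p = 0.0188). ABO6, another RNA helicase of the mitochondrion, was 2.91-fold higher (adjusted p = 0.0216), and PMH2 was 1.67-fold higher (adjusted p = 0.0263). The difference between WTF1, at 2.15-fold, and these factors was not tested. The fold changes of the 4 called plastid factors were 1.37 to 1.77, and those of the 5 called mitochondrial factors 1.67 to 2.91.

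**Figure D4:**
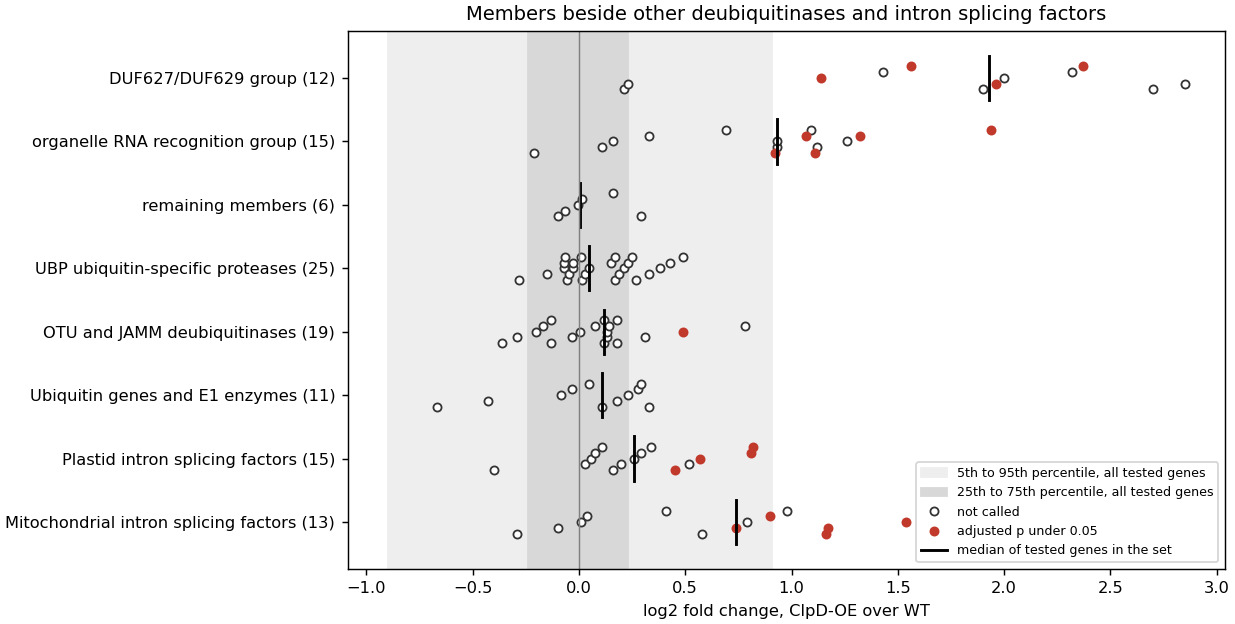
Log2 fold change of ClpD-OE over WT for the 3 groups of members and 5 lists of other genes, with the number tested in brackets. Filled points have an adjusted p under 0.05, the black bar is the median of each set, and grey bands span the middle of the distribution of all tested genes (25th to 75th and 5th to 95th percentiles, -0.24 to 0.23 and -0.90 to 0.91). The medians are 1.93, 0.93 and 0.0057 for the groups of members, 0.049 for UBP genes and 0.74 for mitochondrial splicing factors.

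The authors' deposited table gives its own comparison. In the authors' deposited table, 10 of the 43 genes had a false discovery rate under 0.05, against 6.55% of all listed genes, and all 10 had a log2 fold change above 0. These 10 were the 9 called by edgeR plus AT5G21970.

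The calls depended on single libraries far more than the fold changes did. This held for the overexpressed gene ERD1 too. It kept log2 fold changes of 3.65 without ClpD-OE replicate 1 and 3.48 without ClpD-OE replicate 2, but was not called in those fits. With either ClpD-OE library left out, no gene of the whole table was called. Without WT replicate 1, WTF1 alone of the 43 genes was called (log2 fold change 1.03, adjusted p = 0.0296), and AT3G58520 missed narrowly (1.68, adjusted p = 0.0506). Without WT replicate 2, 8 of the 43 genes were called, AT5G21970 among them, and AT1G65120 and AT5G61950 were lost (adjusted p = 0.0556 and 0.0595). AT1G65120 was also lost with DESeq2 size factors in edgeR and with no filter on low counts (adjusted p = 0.0507 and 0.0508). The log2 fold change of WTF1 stayed between 1.03 and 1.19 over the 4 ways of leaving out a library, that of RPD1 between 0.87 and 0.98, and that of AT1G65120, the least steady, between 1.59 and 2.37. In each of the 4, the 9 genes had log2 fold changes above 0.

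**Figure D5:**
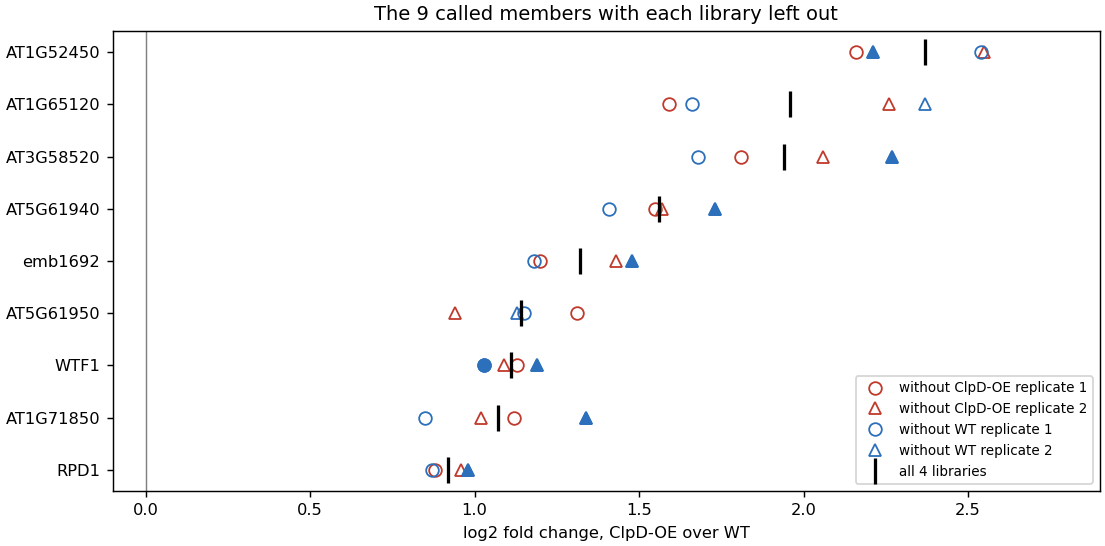
Log2 fold change of ClpD-OE over WT for the 9 called genes when each library was left out in turn. Red symbols mark a missing ClpD-OE library, blue symbols a missing WT library, filled symbols an adjusted p under 0.05, and the black bar the value with all 4 libraries. Every symbol lies to the right of 0, from 0.85 for AT1G71850 without WT replicate 1 to 2.55 for AT1G52450 without ClpD-OE replicate 2, and WTF1 is filled with either WT library missing.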

How the data were processed

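Poly(A) RNA of whole seedlings was sequenced in 4 libraries. Per the submitters' processing notes, the build was TAIR10 and the tools were DESeq2, RSEM, StringTie 1.3.1, HISAT2, Bowtie2 2.2.8 and fastp 0.18.0, none with a stated role. The authors deposited 1 table with estimated counts per gene, read as RSEM's expected counts because RSEM is named; all were whole, so rounding changed none. The authors' FPKM values were used only to rank and describe levels between genes. The authors' log2 fold change, p-value and false discovery rate were deposited beside them, and the file headers name no test. The FPKM and the authors' statistics entered no test made here.

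The test used edgeR 4.0.16 under R 4.3.3 (TMM factors 1.07 and 1.09 in ClpD-OE, 0.907 and 0.943 in WT; filterByExpr by genotype; quasi-likelihood test; Benjamini-Hochberg adjustment over 18940 genes; called under 0.05). The common biological coefficient of variation was 0.14. The SE is the log2 fold change divided by the square root of F. CPM used TMM-scaled totals. Replicates differed by more than sampling noise (chi-square per degree of freedom 10.2 in ClpD-OE, 18.6 in WT). Intervals are not given, and counting precision is set by the counts printed.

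RefSeq assembly TAIR10.1, in which all 31346 loci were found, gave names, neighbours, coding sequences and proteins (blast 2.17.0). Its build differs in name from the authors', so no coordinates or sequences are printed. Chromosomes are those of the locus codes.

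The members and the gene lists were chosen with earlier results of these data known. By rule, the text names the called members, the 4 tested members of highest FPKM in each annotation class, listed UCH and organelle RNA recognition members with a mean of at least 5 CPM, and up to 3 called genes per list by p. The other members, the neighbours, the uncalled genes of the lists and PYK10, CASP1 and TIP2;3 were named after their values were seen. Alternatives were DESeq2 size factors, library totals, no filter, at least 1 CPM in 2 or more libraries, the DESeq2 1.42.0 test, the replicate number as a block, and each library left out.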

Additional observations from a re-analysis of the deposited data

How the results depend on the processing

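The 9 called genes of the set were 8 with DESeq2 size factors, 8 with no filter, 9 with a minimum of 1 CPM, 10 with DESeq2 and 0 to 8 with a library left out, and 0 were lower in any fit. Library totals in place of TMM moved the median log2 fold change of all genes to 0.23, and gave 17 called members (7 related proteins, 8 family proteins and 2 of other wording), 2699 genes called higher of the whole table and 27 called in the lists (5 of them UBP genes, against 0), against 812 and 10. DESeq2 called 1217 genes of the table lower, against 740. With a library left out, 0 to 1179 genes of the table were called higher and 0 to 1602 lower, 0 to 2 related proteins, 0 to 6 family proteins and 0 to 14 genes of the lists; leaving out a ClpD-OE library gave each 0. Each fit with a library left out, of either genotype, has 1 library in a genotype, assumed to vary like the other. Why the number of calls differed between these fits was not tested. Uncalled log2 fold changes near 0 turned sign in some fits. With library totals, AT1G65295 stood at 0.22, UBP7 at 0.17, UCH1 at 0.13 and AT2G31290 at 0.016. With a library left out, they ranged from -0.021 to 0.015 for AT1G65295, from -0.29 to 0.20 for UBP7, from -0.22 to 0.018 for UCH1, from -0.032 to 0.06 for AT5G22040, from -0.46 to 0.08 for AT2G31290 and from -0.06 to 0.26 for AT4G08940.

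The genotypes share replicate numbers, but with 2 pairs nothing shows that a number pairs libraries (correlation of same-numbered deviations 0.29). With the replicate number as a block, 13 members were called, with 5 related proteins, 7 family proteins and 1 of other wording, 18 genes of the lists, 1 of them a UBP gene, 1628 genes of the table higher and 1885 lower.

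Depth limits the DUF627/DUF629 group most, since 15 of its 21 genes had a mean under 1 CPM.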
